A study of Macaca mulatta with 24 samples.

Results

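The genes described here encode the scaffold that holds the gut wall together: collagens, laminins and a set of proteoglycans and glycoproteins of the extracellular matrix. They were picked by name from the array's annotation, as every probe whose gene symbol begins like a collagen chain (COL, a number, A and a number) or a laminin chain (LAMA, LAMB or LAMC and a number), or is VCAN, DCN, LUM, BGN, FN1, TNC, SPARC, POSTN, FBN1, ELN, LOX, FBLN1, THBS1 or THBS2. The rule used no measured value. It found 73 of the 43603 probes, which stand for 39 of the 16094 gene symbols: 24 collagen genes, 4 laminin genes and 11 of the 14 single names. TNC, FBLN1 and THBS2 had no probe of that symbol, and neither had COL4A1, COL18A1, LAMA5 or LAMC1, so nothing is said of them.

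Rhesus macaques (Macaca mulatta), young adult males, received cobalt-60 gamma rays to the whole body as a single dose of 6.7 or 7.4 Gy, or a sham exposure. A piece of about 3 cm was taken from the jejunum, the middle part of the small intestine. Total RNA of whole tissue from it was labelled with Cy3 and hybridised to one-colour Agilent arrays, 1 animal to each of 24 arrays. The groups were sham-irradiated controls killed on day 4 (dose 0 Gy, n = 4), 6.7 Gy on day 4 (n = 4), 7.4 Gy on day 4 (n = 4), 6.7 Gy on day 7 (n = 4), 7.4 Gy on day 7 (n = 4), 6.7 Gy on day 12 (n = 2) and 7.4 Gy on day 12 (n = 2). The same 4 controls served every comparison with control, and no control was taken on day 7 or day 12. The sample was a piece of whole gut wall, mucosa and muscle together, so in this bulk RNA fewer cells of a type and less RNA per cell cannot be told apart.

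The extracellular matrix of the gut has a sheet-like part, the basement membrane, built from laminins and collagen IV under epithelium, muscle and vessels, and a fibrous part in between, made mostly by fibroblasts and smooth muscle cells. Collagens I and III form the fibrils; collagens XII, XIV and XVI sit on fibril surfaces, collagen VI forms beaded filaments around cells, and decorin, lumican and biglycan are small proteoglycans that bind fibrils and regulate their assembly. Fibronectin, versican, periostin and thrombospondin 1 belong to the provisional matrix that is laid down in injured tissue, where cells attach, migrate and divide.

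Levels are given throughout on a log2 scale, as the log2 of a probe's processed signal minus the log2 of the 75th percentile of that array, so that a level of 0 is the 75th percentile and a difference of 1 is a 2-fold difference. Levels of different probes are not comparable with each other. To be tested, a probe had to be well above background throughout 1 or more of the 7 groups, and 28171 probes were. Of the 73 matrix probes 49 were tested, for 29 genes, and 33 of those 49 were well above background on all 24 arrays. COL2A1, COL4A3, COL4A4, COL4A6, COL6A6, COL19A1, COL21A1, COL25A1, ELN and LOX had no tested probe; ELN, the gene of elastin, was well above background on 12 arrays and LOX, which cross-links collagen and elastin, on 8. The 24 matrix probes not tested were well above background on 0 to 16 arrays each. A probe is called changed at a Benjamini-Hochberg adjusted p under 0.05 over all 28171 probes together with a change of at least 2-fold (limma). A gene with several tested probes is described by the one of highest mean level unless another is named.

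The 4 arrays of slide 5 had the lowest shares of probes well above background, 39.4% to 49.6%, against 51.3% to 87.7% on the other 20 arrays. The arrays of slide 4, at 51.3% to 62.6%, came next, and control replicate 4 among them was the lowest at 51.3%. The slide 5 arrays were replicate 1 of 6.7 Gy day 4, replicate 3 of 7.4 Gy day 4, replicate 1 of 7.4 Gy day 7 and replicate 1 of 7.4 Gy day 12, so no control was among them. Slides 5 and 6 were scanned on a later day than slides 1 to 4, which held all controls, and all controls lay at the first position of their slide.

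**Figure D1:**
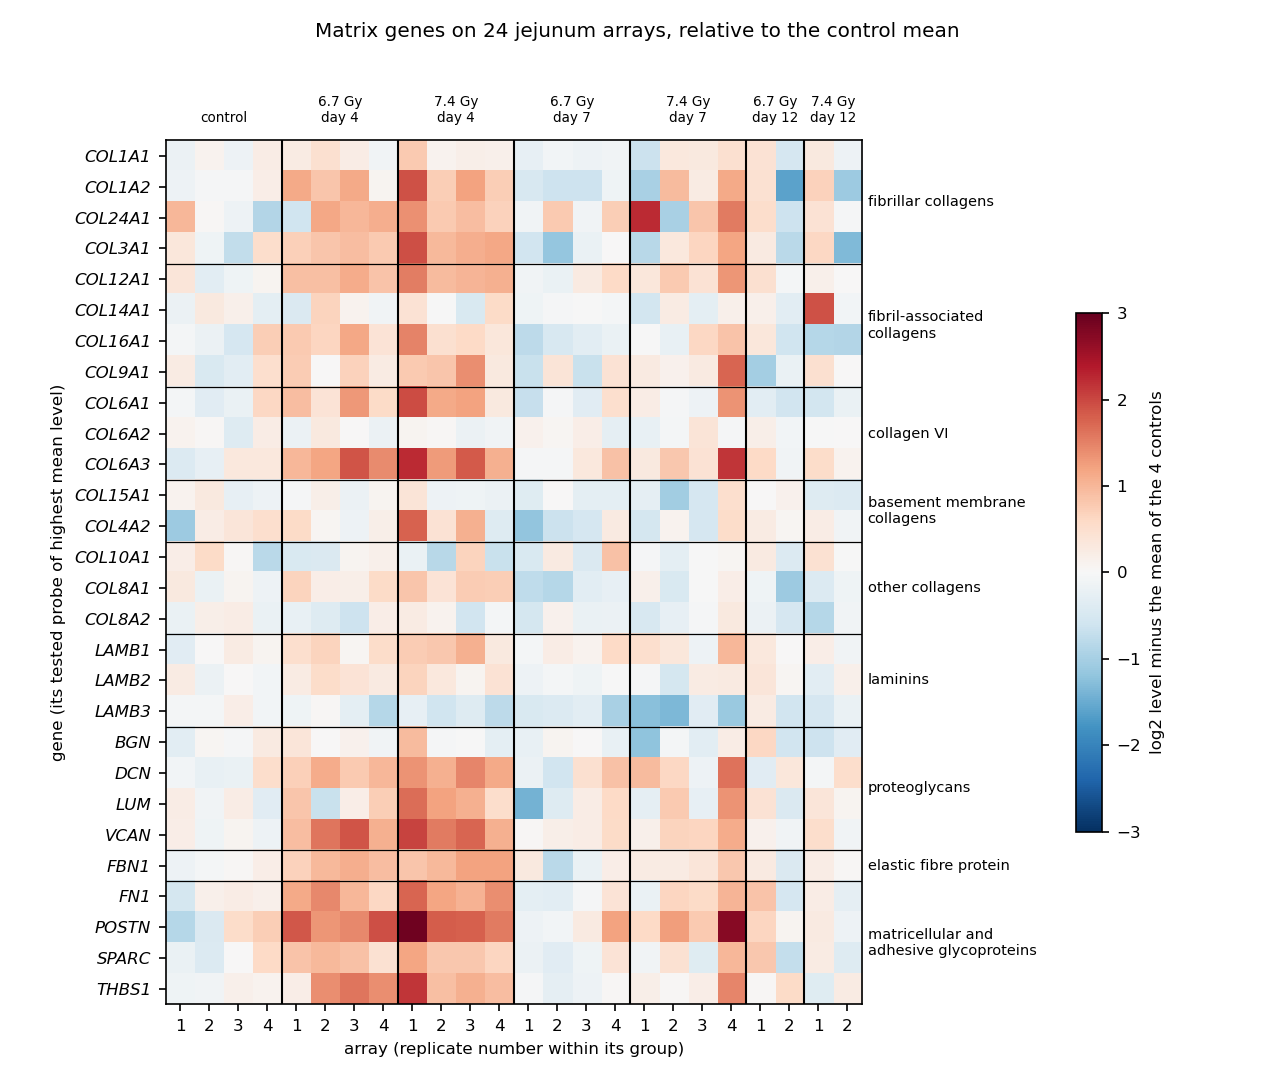
Each row is 1 of 28 genes with a tested probe and each column 1 of the 24 arrays, grouped by dose and day; colour is the log2 level minus the mean of the 4 controls. Both day 4 groups were red for most fibrillar and fibril-associated collagens, proteoglycans and glycoproteins, and pale for COL6A2 and COL15A1; on day 7, replicate 4 of 7.4 Gy stood above the other arrays of its group.

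On day 4 the matrix genes that changed all rose. After 6.7 Gy 10 of the 49 tested probes, for 6 genes, were called higher than control and 0 were called lower; over all probes tested 1.25% were called higher and 0.731% lower. After 7.4 Gy 17 of 49, for 12 genes, were called higher and 0 lower, beside 1.71% higher and 0.887% lower over all probes. Irradiated animals and controls did not overlap, with the irradiated higher, for 21 of 49 probes after 6.7 Gy (6.69% of all probes) and for 29 of 49 after 7.4 Gy (7.28%). The reverse, with the irradiated lower, held for 0 of 49 (7.66%) and, in LAMB3, for 1 of 49 (10.1%). The median change over the 49 probes was a log2 difference of 0.66 after 6.7 Gy and of 0.90 after 7.4 Gy, beside -0.06 and -0.08 over all probes. The change was above 0 for 44 of 49 probes after 6.7 Gy and for 43 of 49 after 7.4 Gy, beside 12166 and 11760 of all 28171 probes. Over 1 probe for each of the 29 genes, the median deviations of the 7.4 Gy arrays from the control mean were 1.23, 0.79, 1.01 and 0.53; replicate 1 was the highest of its group for 23 of 29 genes and replicate 4 the lowest for 15. After 6.7 Gy these medians were 0.69, 0.65, 0.78 and 0.46. Both comparisons used the same controls, so their values are not independent of each other.

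The adhesive and matricellular glycoproteins had the highest median log2 change of the 9 classes on day 4, 1.05 after 6.7 Gy and 1.28 after 7.4 Gy, and 5 of their 9 tested probes were called at each dose. Periostin (POSTN), a matricellular protein that binds collagen and integrins, had levels of -1.63, -1.23, -0.24 and -0.05 in the 4 controls. Day 4 levels in the 6.7 Gy animals were 1.07, 0.54, 0.66 and 1.15, and those in the 7.4 Gy animals 2.13, 1.02, 1.01 and 0.77. All 8 lay above the highest control. POSTN was 3.12-fold higher after 6.7 Gy (log2 change 1.64, SE 0.35, adjusted p = 0.042, limma) and 4.06-fold higher after 7.4 Gy (log2 change 2.02, SE 0.42, adjusted p = 0.0317, limma). Its probe A_01_P1714416, with less spread among the controls, gave 3.65-fold (adjusted p = 0.00354, limma) and 4.49-fold (adjusted p = 0.0152, limma), and the remaining probe, A_01_P1824431, gave 2.81-fold (adjusted p = 0.0494, limma) and an uncalled 3.17-fold (adjusted p = 0.0649, limma).

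Fibronectin (FN1), the glycoprotein that links cells to collagen and fibrin, had levels of 2.43, 3.10, 3.16 and 3.09 in the controls. On day 4 the 6.7 Gy animals had 4.08, 4.40, 3.94 and 3.58, and the 7.4 Gy animals 4.69, 4.14, 3.99 and 4.35. The lowest irradiated array lay above the highest control, and control replicate 1 lay below the other controls. FN1 was 2.07-fold higher after 6.7 Gy (log2 change 1.05, SE 0.23, adjusted p = 0.0427, limma) and 2.54-fold higher after 7.4 Gy (log2 change 1.34, SE 0.22, adjusted p = 0.0169, limma). Of its 4 tested probes 2 were called at each dose, and the changes of the 4 ran from 0.24 to 1.05 after 6.7 Gy and from 1.08 to 1.34 after 7.4 Gy.

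Thrombospondin 1 (THBS1), a matricellular protein that activates latent TGF-beta, had a narrow range in the controls, with levels of -3.37, -3.34, -3.09 and -3.14. After 6.7 Gy the day 4 levels were -3.03, -1.83, -1.62 and -1.85, and after 7.4 Gy they were -1.09, -2.34, -2.18 and -2.30. Replicate 1 of 6.7 Gy, an array of slide 5, lay just above the highest control and far below the other 3 arrays of its group. Its signal did not stand well above background there, nor in replicate 3 of 7.4 Gy, which is also on slide 5; it did on the 4 controls and on the other 3 day 4 arrays of each dose. THBS1 was called only after 7.4 Gy (2.39-fold, log2 change 1.26, SE 0.27, adjusted p = 0.0375, limma); after 6.7 Gy the value was 2.22-fold with an adjusted p of 0.0661, and the difference between the doses was 0.11 (SE 0.33, adjusted p = 1, limma). With all levels below -1.85 raised to that value, as a common floor, the log2 changes of THBS1 were 0.06 and 0.19, with no call. SPARC, a collagen-binding glycoprotein, was called at neither dose (log2 change 0.79, SE 0.23, and 0.86, SE 0.23; adjusted p = 0.0957 and 0.0677, limma).

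Among the proteoglycans 2 of 8 tested probes were called after 6.7 Gy and 5 of 8 after 7.4 Gy. Versican (VCAN), a large chondroitin sulphate proteoglycan that binds hyaluronan, had control levels of -0.28, -0.60, -0.40 and -0.64. The day 4 levels of the 6.7 Gy animals, 0.44, 1.13, 1.41 and 0.59, and of the 7.4 Gy animals, 1.54, 1.09, 1.27 and 0.59, all lay above the controls. VCAN was 2.59-fold higher after 6.7 Gy (log2 change 1.37, SE 0.23, adjusted p = 0.0191, limma) and 3.04-fold higher after 7.4 Gy (log2 change 1.60, SE 0.21, adjusted p = 0.00971, limma).

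Decorin (DCN), the small proteoglycan that coats collagen fibrils and binds TGF-beta, had control levels of 2.82, 2.67, 2.69 and 3.42. On day 4 the animals given 6.7 Gy had 3.61, 4.01, 3.69 and 3.89, and those given 7.4 Gy 4.24, 3.96, 4.37 and 4.04. Neither group overlapped with the controls. DCN was called after 7.4 Gy (2.38-fold, log2 change 1.25, SE 0.20, adjusted p = 0.0154, limma), as were both of its other probes; after 6.7 Gy its 3 probes gave log2 changes of 0.76 to 0.90, each with an adjusted p under 0.05 but a change below 2-fold.

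Lumican (LUM), another small fibril-binding proteoglycan, was called after 7.4 Gy alone. Its control levels were 0.16, -0.15, 0.17 and -0.39, its levels after 6.7 Gy were 0.78, -0.72, 0.15 and 0.68, and those after 7.4 Gy were 1.63, 1.16, 1.02 and 0.47. The 6.7 Gy arrays lay on both sides of the controls and the 7.4 Gy arrays lay above them. The log2 change was 0.28 (SE 0.32, adjusted p = 0.659, limma) after 6.7 Gy and 1.12 (SE 0.25, adjusted p = 0.04, limma) after 7.4 Gy, but the difference between the doses, 0.85 (SE 0.42, adjusted p = 1, limma), did not pass the test. Biglycan (BGN), which belongs to the same family, moved by 0.10 (SE 0.17) and 0.15 (SE 0.27).

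**Figure D2:**
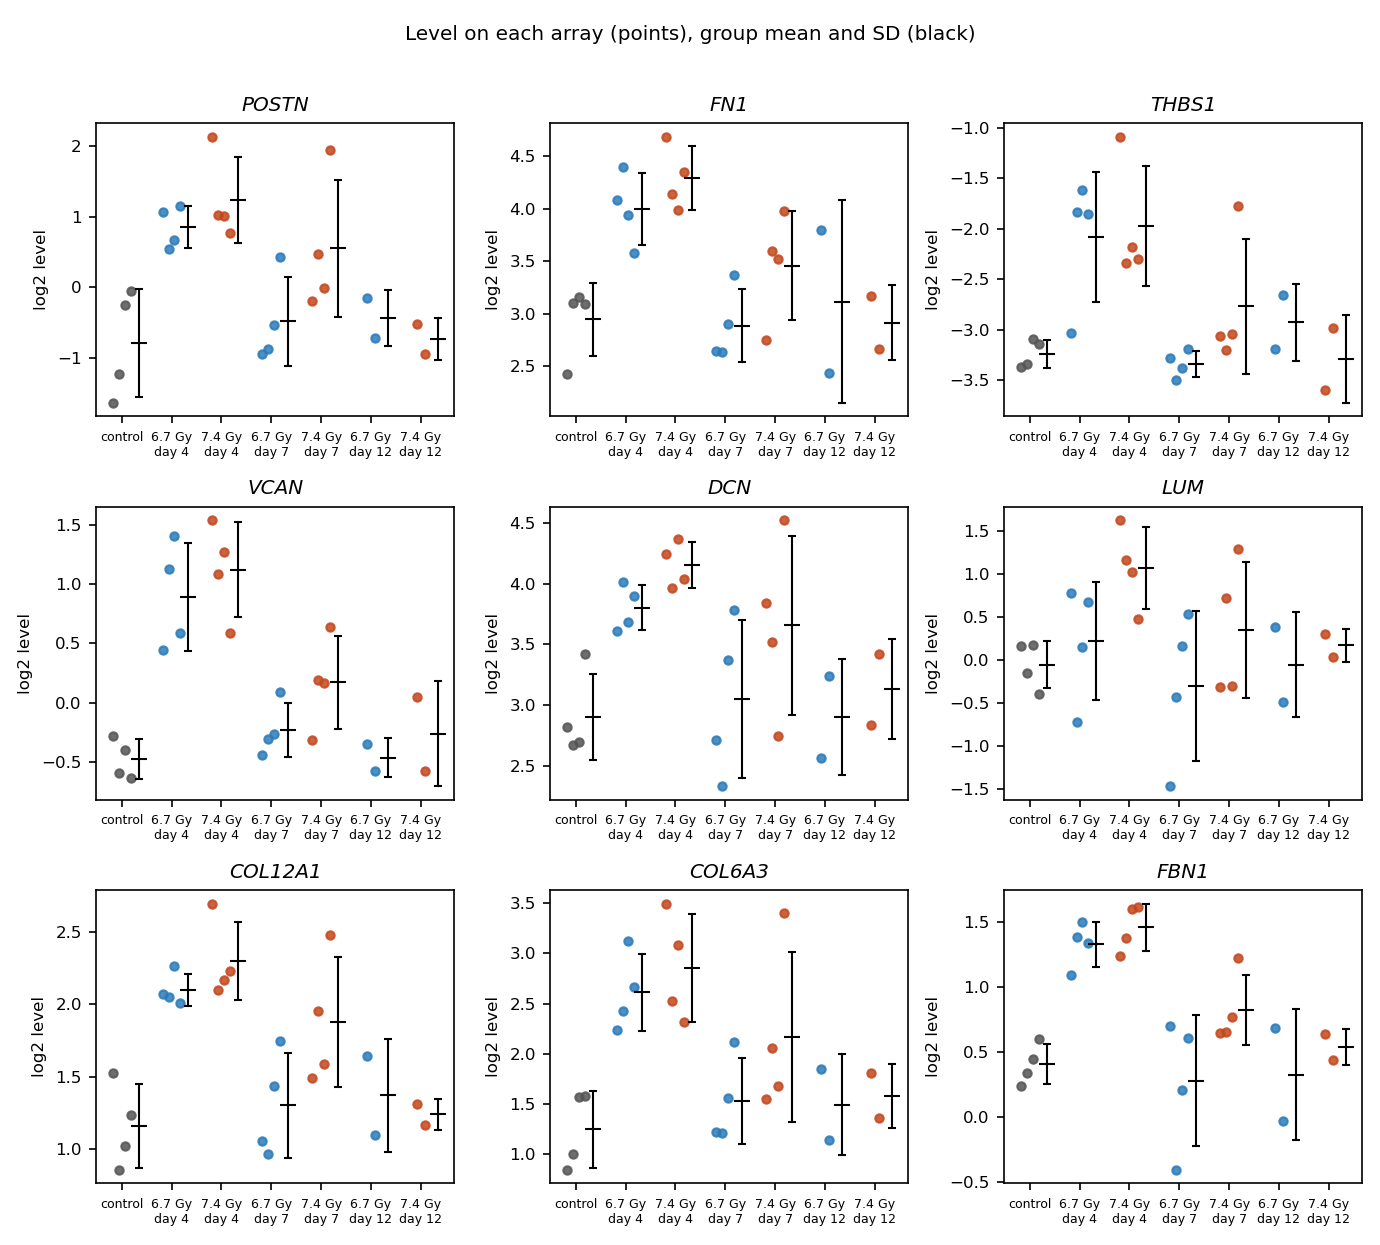
Log2 level of 9 matrix genes (1 probe each) on each array, by group; points are arrays, grey for control, blue for 6.7 Gy and orange for 7.4 Gy, and black marks are the group mean with its SD (n = 4, or 2 on day 12). The day 4 arrays lay above all controls for each of the 9 genes except LUM after 6.7 Gy, and THBS1 in replicate 1 of 6.7 Gy day 4 lay at -3.03, close to the controls and not well above background.

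Of 9 tested probes for 4 genes of the fibrillar collagens, 0 were called after 6.7 Gy and 2 after 7.4 Gy, and all 9 had a log2 change above 0 at each dose (median 0.66 and 0.90). COL1A2, a chain of collagen I, had control levels of 1.36, 1.48, 1.46 and 1.71. On day 4 it had levels of 2.65, 2.33, 2.64 and 1.58 after 6.7 Gy and of 3.41, 2.23, 2.71 and 2.23 after 7.4 Gy. The 6.7 Gy group overlapped with the controls through replicate 4, and the 7.4 Gy group did not overlap. COL1A2 was 2.21-fold higher after 7.4 Gy (log2 change 1.14, SE 0.26, adjusted p = 0.0425, limma) and 1.74-fold higher after 6.7 Gy without passing the test (adjusted p = 0.104, limma). The other tested probe of COL1A2 was called at neither dose, with log2 changes of 0.86 after 6.7 Gy and 0.98 after 7.4 Gy.

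COL3A1, the chain of collagen III, had levels of 5.51, 5.02, 4.43 and 5.68 in the controls, 5.88, 6.00, 6.10 and 5.94 in the 6.7 Gy animals of day 4, and 7.09, 6.14, 6.25 and 6.32 in the 7.4 Gy animals. The controls spread over more than 1 log2 unit, the 4 arrays of 6.7 Gy over far less. The log2 change was 0.82 (SE 0.26, adjusted p = 0.116, limma) after 6.7 Gy and 1.29 (SE 0.31, adjusted p = 0.049, limma) after 7.4 Gy, the latter called. The other 3 probes of COL3A1 had changes of 0.35 to 0.81 and of 0.83 to 0.90 and were not called.

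COL1A1, the partner chain of COL1A2 in collagen I, was called by neither of its 2 probes. The first had control levels of -0.07, 0.21, -0.05 and 0.32, levels of 0.36, 0.59, 0.33 and -0.01 after 6.7 Gy, and levels of 0.88, 0.21, 0.27 and 0.26 after 7.4 Gy. Its log2 changes were 0.21 (SE 0.17) and 0.30 (SE 0.19), and those of the second probe, A_01_P1695221, were 0.55 (SE 0.15, adjusted p = 0.0749, limma) and 0.74 (SE 0.20, adjusted p = 0.0657, limma). COL24A1, a minor fibrillar collagen, was well above background on 19 of 24 arrays and changed by 0.66 (SE 0.48) and 0.95 (SE 0.36), with adjusted p of 0.466 and 0.152 (limma).

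The collagens that sit on or between fibrils held 3 of the called genes. COL12A1, which links collagen I fibrils to their surroundings, had control levels of 1.52, 0.85, 1.02 and 1.23. On day 4 the 6.7 Gy animals had 2.07, 2.05, 2.26 and 2.01, the 7.4 Gy animals 2.70, 2.10, 2.17 and 2.23, and all 8 lay above the controls. The log2 change was 0.94 after 6.7 Gy, just under the 2-fold limit (SE 0.17, adjusted p = 0.0244, limma), and 1.14 after 7.4 Gy (SE 0.20, adjusted p = 0.0193, limma). A second probe of COL12A1, A_01_P1745156, was called at each dose, with 1.17 and 1.25.

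COL6A3, the largest chain of collagen VI, rose from control levels of 0.84, 1.00, 1.57 and 1.58. It reached 2.24, 2.42, 3.13 and 2.67 after 6.7 Gy and 3.49, 2.52, 3.08 and 2.32 after 7.4 Gy. These groups did not overlap with the controls. The changes were 2.58-fold (log2 change 1.37, SE 0.25, adjusted p = 0.0248, limma) and 3.04-fold (log2 change 1.61, SE 0.29, adjusted p = 0.0219, limma). COL6A1, a partner chain of collagen VI, changed by 0.81 (SE 0.26, adjusted p = 0.124, limma) and 1.15 (SE 0.35, adjusted p = 0.09, limma), with overlap at each dose.

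COL14A1, a collagen related to COL12A1, was called at each dose by its probe A_01_P1739041 (log2 changes 1.07 and 1.35, adjusted p = 0.0306 and 0.0191, limma). That probe was well above background on 3 of 4 controls and on 3 of 4 arrays of each day 4 group, and all its levels on these arrays lay below the common floor of -1.85, so that no change was left with the floor. The probe that stands for COL14A1 showed changes of 0.06 and 0.14. COL16A1 was not called on day 4 (0.75, SE 0.27, and 0.72, SE 0.32). COL9A1 gave 0.43 (SE 0.26) and 0.83 (SE 0.29), not called.

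Fibrillin 1 (FBN1), the core of the microfibrils on which elastic fibres form, was the single elastic fibre gene with a tested probe. Its control levels were 0.24, 0.34, 0.44 and 0.59, its levels after 6.7 Gy 1.09, 1.38, 1.50 and 1.34, and those after 7.4 Gy 1.24, 1.37, 1.60 and 1.61. Neither group came near the controls. FBN1 had an adjusted p of 0.0167 after 6.7 Gy at 1.90-fold (log2 change 0.92, SE 0.15, limma), just under the fold limit, and was called after 7.4 Gy at 2.07-fold (log2 change 1.05, SE 0.15, adjusted p = 0.0108, limma).

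The basement membrane genes were not called on day 4. COL4A2, a chain of the collagen IV found in all basement membranes, had control levels of -1.19, 0.11, 0.27 and 0.40, and day 4 levels of 0.48, -0.03, -0.27 and 0.08 after 6.7 Gy and 1.67, 0.34, 0.95 and -0.49 after 7.4 Gy. These ranges overlapped widely, and the log2 changes were 0.17 (SE 0.35) and 0.72 (SE 0.49). Control replicate 1 lay far below the other controls. Without it the change after 6.7 Gy turned negative and that after 7.4 Gy was smaller. COL15A1, a collagen at the outer face of basement membranes, moved by 0.01 (SE 0.16) and -0.02 (SE 0.19). Among the other network-forming collagens COL8A1, found in vessel walls, changed by 0.41 (SE 0.18) after 6.7 Gy and by 0.69 (SE 0.17, adjusted p = 0.048, limma) after 7.4 Gy, below 2-fold. COL8A2 (-0.25 and -0.07) and COL10A1 (-0.17 and -0.26) were not called.

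Of 5 tested laminin probes for 4 genes 0 were called on day 4. LAMB1, a beta chain found in many basement membranes, had levels of 0.83, 1.17, 1.41 and 1.23 in the controls, 1.67, 1.83, 1.23 and 1.71 after 6.7 Gy, and 1.92, 1.98, 2.22 and 1.46 after 7.4 Gy. Its 7.4 Gy arrays lay above the controls, but the change, 0.73 (SE 0.20, adjusted p = 0.0677, limma), did not pass the test, and after 6.7 Gy it was 0.45 (SE 0.18). LAMB2 changed by 0.37 (SE 0.15) and 0.38 (SE 0.17).

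LAMB3 encodes a chain of the laminin that anchors epithelial cells through hemidesmosomes. It had control levels of 1.91, 1.88, 2.16 and 1.87 and day 4 levels of 1.82, 2.00, 1.67 and 1.10 after 6.7 Gy and 1.72, 1.36, 1.56 and 1.17 after 7.4 Gy. The 7.4 Gy arrays lay below all controls, with a log2 change of -0.50 (SE 0.16, adjusted p = 0.1, limma) that was not called, and this value was 0.02 with the position on the slide in the model.

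**Figure D3:**
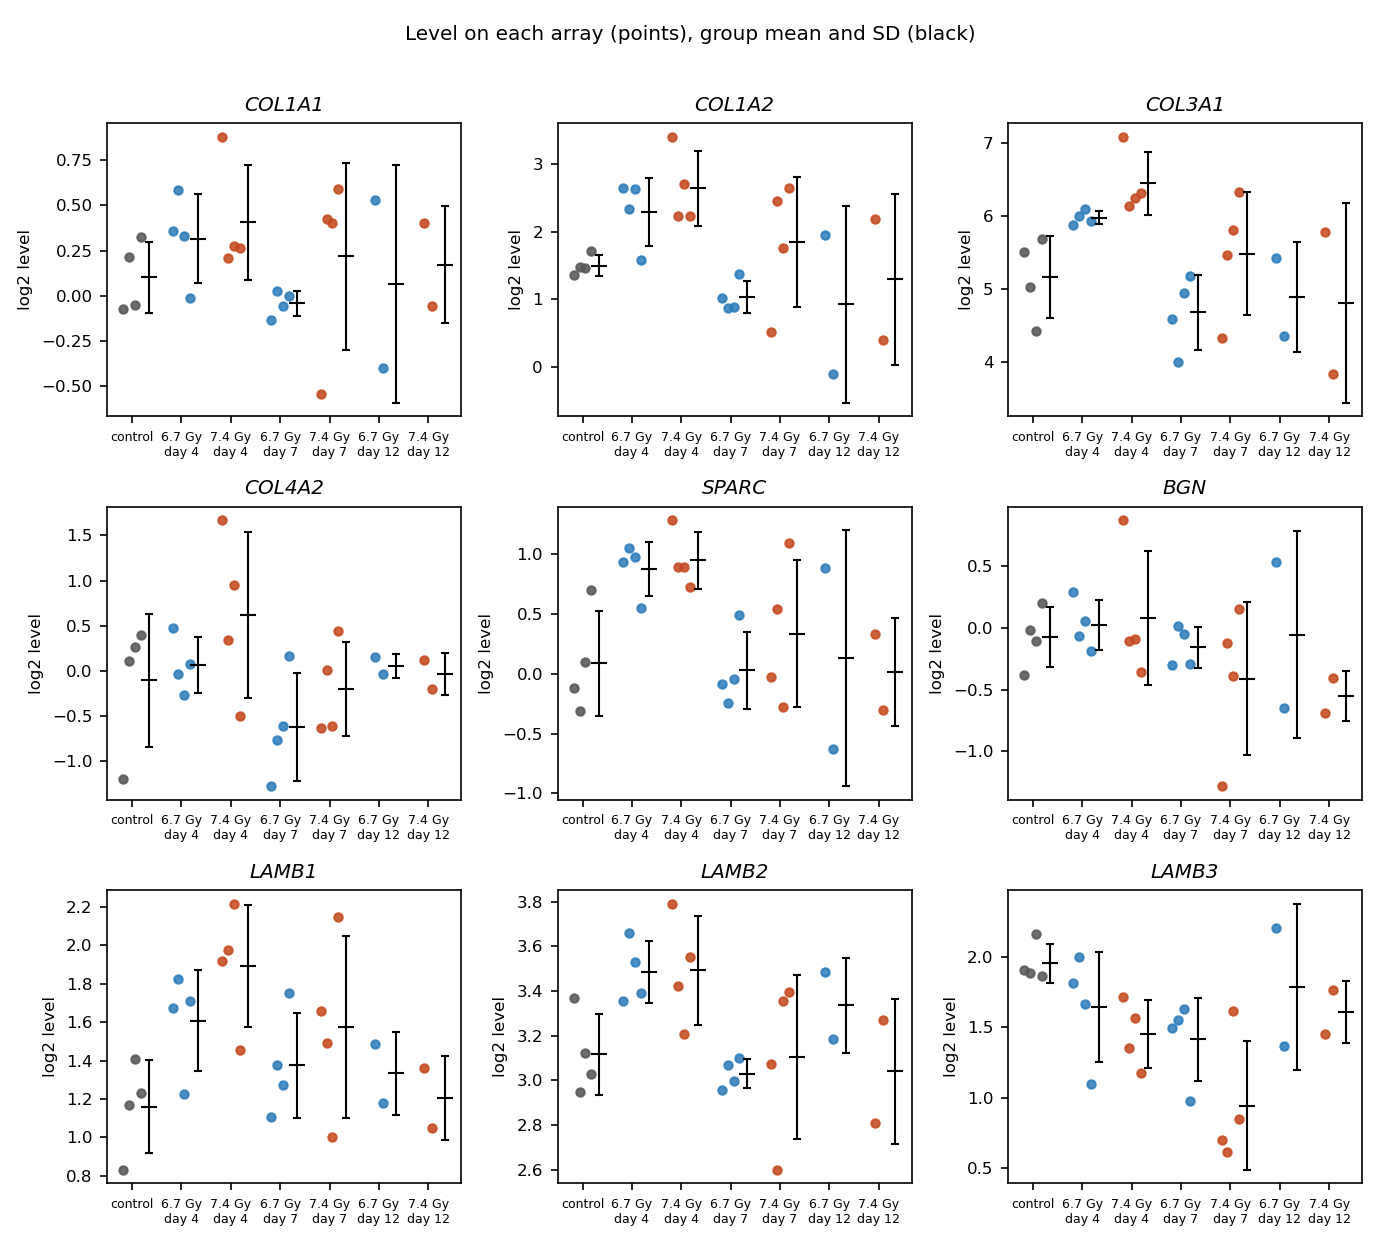
Log2 level of 9 collagen, laminin and other matrix genes (1 probe each) on each array, by group, drawn as in the plot of the called genes: points are arrays, black marks the group mean and SD (n = 4, or 2 on day 12). COL1A2 and COL3A1 were called on day 4 after 7.4 Gy and the other 7 genes were called against control in no group; the day 12 arrays of COL1A2 lay as far apart as 1.96 and -0.10 after 6.7 Gy.

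Probes of the same gene did not always give the same answer. Of the 29 genes 12 had more than 1 tested probe. VCAN was called by the probe described above and, on day 4 after 6.7 Gy, by probe A_01_P1773766 (log2 change 2.17, SE 0.47, and 2.09, SE 0.58, after 7.4 Gy), which was well above background on 3 of 4 controls. With the common floor of -1.85 its changes were 0.22 and 0.41, with no call. Its probe A_01_P1687201 stood at log2 changes of -0.41 (SE 0.31) and -0.52 (SE 0.32) at these doses and was not called. COL6A2 had a probe that lay between 6.11 and 6.87 on all 24 arrays, with changes of -0.01 and -0.04, and a probe with changes of 0.47 (SE 0.24) and 0.87 (SE 0.34). The transcripts that these probes target were not compared here. The 3 probes of DCN lay close together, from 0.76 to 0.90 after 6.7 Gy and from 1.04 to 1.25 after 7.4 Gy.

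**Figure D4:**
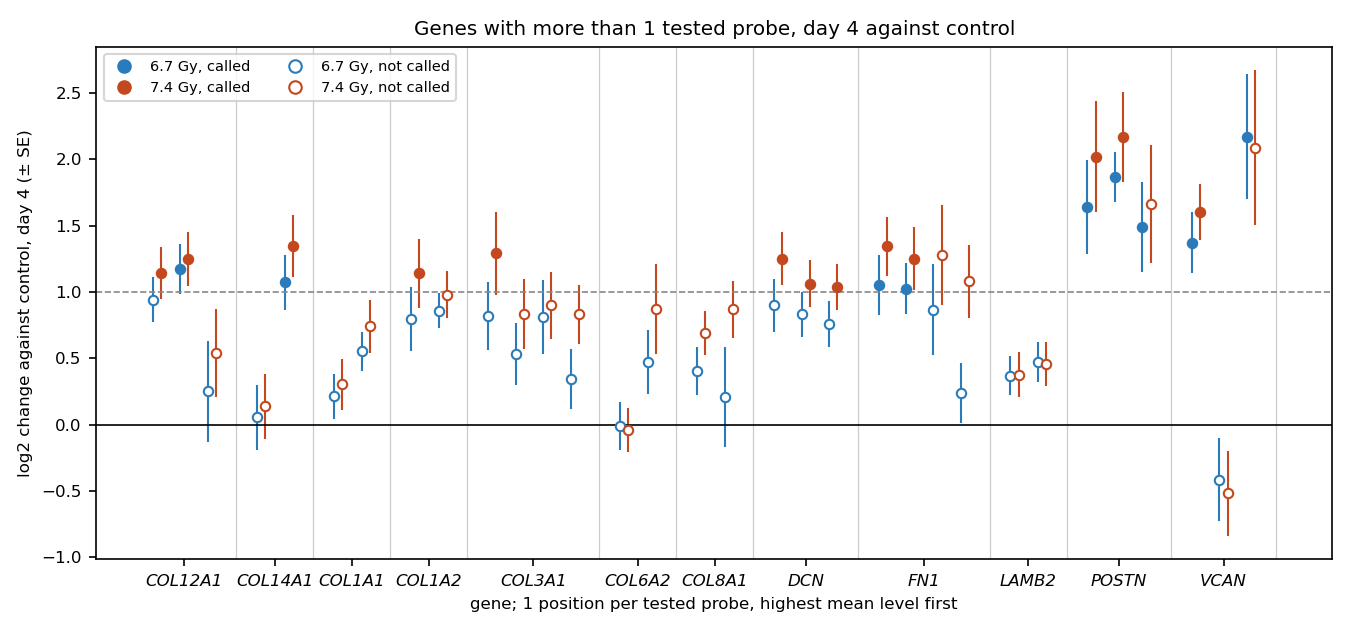
Log2 change against control on day 4 (vertical axis, point ± SE from limma, n = 4 against 4) for every tested probe of the 12 genes with more than 1; blue is 6.7 Gy, orange 7.4 Gy, filled points were called and the dashed line marks 2-fold. The probes of DCN and POSTN lay close together within each gene, and those of VCAN spread from -0.52 to 2.17.

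The day 4 calls depended on which arrays entered the fit. Without any 1 of the 8 arrays in turn, between 1 (without 6.7 Gy day 4 replicate 2) and 8 (without control replicate 4) probes were called after 6.7 Gy. After 7.4 Gy between 4 (without control replicate 2) and 17 (without 7.4 Gy day 4 replicate 4) were called. The share of all probes called in these fits is not given here, so a fall of the matrix calls cannot be told from a fall over all probes. POSTN probe A_01_P1714416 after 6.7 Gy, and VCAN, FN1 and COL12A1 probe A_01_P1745156 after 7.4 Gy, were called in all 8 of these fits. POSTN probe A_01_P1824431 and VCAN probe A_01_P1773766 lost their 6.7 Gy calls at least without 6.7 Gy day 4 replicate 2. The probe that stands for POSTN elsewhere in the text, A_01_P014638, kept its call in 1 of 8 fits after 6.7 Gy (1.36 to 1.89, kept without control replicate 4). After 7.4 Gy it kept it in 2 of 8 (1.72 to 2.27, kept without control replicate 4 or 7.4 Gy day 4 replicate 4). VCAN after 6.7 Gy kept its call in 5 of 8 (1.20 to 1.52, lost without control replicate 2 or 3 or 6.7 Gy day 4 replicate 2). COL14A1 probe A_01_P1739041 kept it in 2 of 8 after 6.7 Gy (0.96 to 1.21) and in 5 of 8 after 7.4 Gy (1.24 to 1.51). COL12A1 probe A_01_P1745156 after 6.7 Gy kept it in 5 of 8 (1.01 to 1.26). DCN after 7.4 Gy was called in all but the fit without control replicate 2, and FBN1 after 7.4 Gy in all but the fit without control replicate 1. FN1 after 6.7 Gy and THBS1 after 7.4 Gy were called in none of the 8, with log2 changes of 0.88 to 1.19 and of 0.96 to 1.38. COL1A2, COL3A1 and LUM after 7.4 Gy were each called in 1 of 8, with log2 changes of 0.89 to 1.28, 1.05 to 1.47 and 0.94 to 1.32; the fits that kept the call left out 7.4 Gy day 4 replicate 4 for COL1A2 and LUM and control replicate 4 for COL3A1. COL6A3 kept its call in 3 of 8 fits after 6.7 Gy (1.20 to 1.49) and in 6 of 8 after 7.4 Gy (1.39 to 1.78, lost without control replicate 1 or 2).

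Slide, scan day and position moved with the groups. Slides 1 and 2 each held 1 control and 1 array of 6.7 Gy day 4, and slides 3 and 4 each held 1 control and 1 array of 7.4 Gy day 4. Within slides 1 and 2, 38 and 39 of the 49 probes were higher on the irradiated array, with median log2 differences of 0.84 and 0.70. Within slides 3 and 4 the numbers were 47 and 41 of 49, with medians of 1.31 and 0.58. Over all tested probes 42.2% to 49.8% were higher within these 4 slides. Without the arrays of slide 5, 7 and 12 matrix probes were called after 6.7 and 7.4 Gy, beside 2.18% and 2.06% of all probes in either direction (1.98% and 2.6% with all arrays). With the arrays of the first scan day alone, 2 irradiated arrays against 4 controls, 2 and 2 were called (0.724% and 0.458% of all probes), and the log2 changes there were 1.70 and 2.36 for POSTN, 1.48 and 1.79 for VCAN, 0.81 and 1.47 for FN1 and 1.65 and 1.76 for COL6A3. With slide as a fixed block in the fit of each pair of groups 0 and 0 were called (0.0177% and 0% of all probes), and in a model of all 24 arrays 13 and 16 (3.01% and 2.80%). With scan day as a block the counts were 2 and 3 (0.98% and 0.618%), and 9 and 19 in the larger model (1.88% and 2.75%). With slide position in a model of all 24 arrays, 1 and 0 were called (0.632% and 0.0603%), POSTN stood at 1.59 and 1.91, and THBS1 at 0.81 and 0.57. All arrays of 7.4 Gy day 4 lay at the second position and all controls at the first, so in these 8 arrays alone position and dose cannot be told apart.

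By day 7 no matrix probe was called against control at either dose. After 6.7 Gy the count was 0 of 49 (0.0213% of all probes higher, 0.0426% lower), 0 also at an unadjusted p under 0.05 with 2-fold (1.56% of all probes), and the median change was -0.08, from -0.55 to 0.55. POSTN levels on day 7 after 6.7 Gy were -0.94, -0.87, -0.53 and 0.43, those of FN1 2.65, 2.63, 2.91 and 3.37, and those of VCAN -0.44, -0.31, -0.26 and 0.09. For these genes the arrays overlapped with the controls.

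After 7.4 Gy on day 7 the count of matrix probes called against control was again 0 of 49 (0.117% of all probes higher, 0.17% lower), with 3 at an unadjusted p under 0.05 and 2-fold (2.97% of all probes): POSTN by 2 probes and LAMB3. The median change was 0.34, with 36 of 49 above 0, beside 13142 of all 28171 probes. POSTN levels were -0.19, 0.47, -0.00 and 1.94 (log2 change 1.34, SE 0.52, adjusted p = 0.246, limma), those of COL6A3 1.55, 2.06, 1.68 and 3.40, and those of DCN 3.84, 3.52, 2.75 and 4.52. Replicate 4 was the highest array of its group for 25 of the 29 genes, and its median deviation from the control mean over the 29 was 0.99, against -0.05, 0.13 and 0.20 for replicates 1, 2 and 3. Replicate 1, on slide 5, was the lowest for 16 of 29. LAMB3 was lower than control, at 0.70, 0.62, 1.62 and 0.85 (log2 change -1.01, SE 0.23, adjusted p = 0.0958, limma), with no overlap and no call.

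On day 12, with 2 animals a dose, 0 of 49 probes were called against control after 6.7 Gy (0.0071% of all probes higher, 0% lower) or after 7.4 Gy (0.00355% and 0%). An unadjusted p under 0.05 with 2-fold was met by 1 probe of COL8A1 after 6.7 Gy (1.83% of all probes) and by 0 after 7.4 Gy (2.55%). The median changes were -0.05 and 0.00, over animals that differed. The median deviations from the control mean over 29 genes were 0.27 and -0.43 for the 2 animals of 6.7 Gy, with replicate 1 the higher for 25 of 29 genes, and 0.22 and -0.10 for those of 7.4 Gy. For COL1A2 and COL3A1 the 2 animals of a dose differed by more than the day 4 changes. COL1A2 was at 1.96 and -0.10 after 6.7 Gy, and COL3A1 at 5.78 and 3.84 after 7.4 Gy. The 2 tested probes of COL1A2 lay on opposite sides of the controls. This probe had log2 changes of -0.57 after 6.7 Gy and -0.21 after 7.4 Gy, and the other probe 0.43 and 0.47. POSTN lay at -0.15 and -0.71 after 6.7 Gy and at -0.52 and -0.94 after 7.4 Gy, within the range of the controls. COL16A1 stood at 1.22 and 1.20 after 7.4 Gy and was not called, with a log2 change of -0.87 (SE 0.34) and an adjusted p of 0.582 (limma).

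Compared directly with day 4 in a single model of all 24 arrays, 0 matrix probes were called higher on a later day (of all probes, 0.795% and 0.419% at 6.7 Gy and 0.852% and 0.816% at 7.4 Gy on days 7 and 12), and several were called lower. On day 7 after 6.7 Gy 7 of 49 probes, for 6 genes, were called lower than on day 4 (0.753% of all probes lower). They were FBN1 (log2 change -1.05, SE 0.21, adjusted p = 0.00921), VCAN (-1.12, SE 0.24, adjusted p = 0.0126), FN1 by 2 probes (-1.11 and -1.19), COL16A1 (-1.19), THBS1 (-1.25) and POSTN by probe A_01_P1714416 (-1.45), all by limma and without overlap between the days. The mean levels of THBS1 in these 2 groups lay below the common floor of -1.85. Without 1 array the count of probes called lower ran from 1 (without 6.7 Gy day 4 replicate 3 or 6.7 Gy day 7 replicate 2) to 11 (without 6.7 Gy day 7 replicate 4), and it was 1 with the arrays of the 2 groups alone. On day 12 after 6.7 Gy 2 were called lower (0.532% of all probes lower): VCAN (-1.36, SE 0.29, adjusted p = 0.027, limma) and a probe of FN1 (-1.50, SE 0.36, adjusted p = 0.0438, limma). That count ran from 0 to 4 without 1 array and was 0 with the arrays of the 2 groups alone.

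On day 7, 24 of 49 probes lay lower than on day 4 without overlap (5.45% of all probes) after 6.7 Gy and 4 of 49 (4.12%) after 7.4 Gy; on day 12 the numbers were 23 (12%) and 33 (12.7%).

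After 7.4 Gy 1 of 49 probes was called lower on day 7 than on day 4, beside 0.792% of all probes lower. On day 12 after 7.4 Gy 9 of 49 probes, for 5 genes, were called lower than on day 4 (1.6% of all probes lower). These were COL16A1 (3.02-fold lower, log2 change -1.59, SE 0.37, adjusted p = 0.0252, limma), VCAN (-1.39), POSTN by 2 probes (-1.97 and -2.04), FN1 by 3 probes (-1.37 to -1.80) and COL12A1 by 2 probes (-1.06 and -1.25). Without the arrays of slide 5, which hold 1 array of each of these 3 groups, 0 were called lower on day 7 and 0 on day 12. Leaving out the slide 5 array of day 12 alone also gave 0, and leaving out the other array of day 12 gave 3. In these fits day 12 is 1 array, assumed to vary like the other groups, so the counts do not separate slide 5 from the loss of an array. The share of all probes called with arrays left out is not given here, so these counts cannot be read against all probes. A fit of the 2 groups alone, with all their arrays, gave 0. The call on day 7 was lost without any 1 of 6 of the 8 arrays. Within slides 5 and 6, 4 and 5 of 49 probes were higher on the day 12 array than on the day 4 array, and 2 and 13 were higher on the day 7 array. Of all tested probes 52.5% and 54.6% were higher on the day 12 array, and 52.7% and 50.4% on the day 7 array.

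No difference between the doses passed the test on any day. The count of matrix probes called between 7.4 and 6.7 Gy was 0 of 49 on day 4, day 7 and day 12, and 0% of all probes were called in any of these comparisons; at an unadjusted p under 0.05 with 2-fold it was 0, 2 and 1, beside 0.277%, 0.735% and 1.88% of all probes. The log2 difference, 7.4 minus 6.7 Gy, ran from -0.19 to 0.85 on day 4 with a median of 0.23 and a median SE of 0.33. On day 7 it ran from -0.58 to 1.03 with a median of 0.50, and POSTN had the 2 probes with an unadjusted p under 0.05. It ran from -0.75 to 1.17 on day 12, where the median was 0.03. Any difference among the 7 groups was found for 19 of 49 probes of 14 genes at an adjusted p under 0.05, against 9.96% of all probes (F test, limma); VCAN had the smallest adjusted p (0.00112), followed by POSTN by probe A_01_P1714416 (0.00387) and FBN1 (0.00398).

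The genes that fold, trim, bind and sense the matrix were looked at beside it. Of 33 genes for collagen folding, processing and cross-linking 19 were on the array and 16 were tested, and 0 were called on day 4 at either dose, with median changes of 0.29 and 0.38. CRTAP (0.76, SE 0.16, adjusted p = 0.0316, limma) and LEPRE1 (0.89, SE 0.20, adjusted p = 0.0385, limma), which together hydroxylate collagen prolines, had the smallest p in the upward direction after 7.4 Gy and stayed under 2-fold. ADAMTS14 (-0.39, SE 0.18) and BMP1 (-0.36, SE 0.18), proteases that trim procollagen, had the smallest p in the downward direction and did not pass.

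Of 26 matrix receptor genes 19 were tested; 0 were called after 6.7 Gy and 1 after 7.4 Gy, the hyaluronan receptor CD44 (log2 change 1.26, SE 0.17, adjusted p = 0.0101, limma). SDC2, a heparan sulphate proteoglycan of the cell surface, was just under the fold limit (0.97, SE 0.18, adjusted p = 0.0232, limma), and the integrin chains ITGA3 (-0.39, SE 0.15) and ITGA10 (-0.26, SE 0.12) were lower without passing. Of 42 other matrix proteins 26 were tested. After 6.7 Gy 1 was called higher, CTGF. After 7.4 Gy 2 were called higher, CTGF (log2 change 1.63, SE 0.37, adjusted p = 0.0427, limma) and OGN (1.05, SE 0.26, adjusted p = 0.0498, limma). Mean levels of CTGF were -3.84 in the controls and, on day 4, -2.51 after 6.7 Gy and -2.20 after 7.4 Gy. These means lay below the common floor of -1.85. The CTGF probe was well above background on 21 arrays, and its change with the floor is not given here. SPARCL1 and PRELP had the smallest p after 7.4 Gy, with changes of 0.95 (SE 0.15) and 0.92 (SE 0.20) below the fold limit, and MFAP2 (-0.35, SE 0.18) and VTN (-0.24, SE 0.17) led the downward side without passing. Against control 0 genes of these 3 lists were called on day 7 or day 12.

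Markers of other cell types moved on day 4 as well. Of 10 fibroblast markers 6 were on the array and 4 were tested (PDGFRB, THY1, C7 and SFRP1), while PDGFRA and FAP were well above background on 16 and 12 arrays and were not tested. All 4 tested markers had changes above 0 at each dose. C7 was called at each dose (1.69 and 1.99) and SFRP1 after 7.4 Gy (1.00), while PDGFRB (0.30 and 0.72) and THY1 (0.35 and 0.61) were called at neither. A sum over probes weights each by its signal, and C7 had the largest change of these 4. The log2 of their summed level ran from 3.79 to 4.17 in the controls, from 4.84 to 5.54 after 6.7 Gy and from 5.06 to 5.66 after 7.4 Gy, without overlap. The 6 tested smooth muscle markers had changes above 0 on day 4, 0.13 to 0.38 after 6.7 Gy and 0.22 to 0.84 after 7.4 Gy, with 0 called and overlapping summed levels. Of 7 tested markers of absorptive enterocytes FABP1, RBP2 and VIL1 were called lower after 6.7 Gy and FABP1 and RBP2 after 7.4 Gy. The other members were not called. LCT stood at 0.59 and 0.79, APOB at 0.09 and 0.06, ANPEP at 0.04 and -0.11 and FABP2 at -1.14 and -0.87, so that 3 of 7 changes lay above 0 after 6.7 Gy and 2 of 7 after 7.4 Gy. The log2 summed level of the 7 was 9.30 to 9.60 in the controls, 8.56 to 8.78 after 6.7 Gy and 8.44 to 9.03 after 7.4 Gy.

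The 4 tested markers of enteric nerve and glia had medians of 0.57 and 0.58 on day 4 with 0 called, the 7 of endothelium 0.04 and 0.13 with 0 called, and the 3 of macrophages 0.79 and 0.83 with CD14 called after 7.4 Gy (1.25) and CSF1R at -0.22 and -0.01, not called. Of the remaining lists, KRT18 of 4 epithelial markers was called higher after 6.7 Gy (1.18; after 7.4 Gy it was 1.10, with no call). The other 3, EPCAM, KRT8 and KRT20, lay at -0.10, -0.04 and -0.43 after 6.7 Gy, with no call. OLFM4 of 5 markers of crypts and cell division was called higher after 7.4 Gy (3.40), and 0 were called of 4 T cell, 2 B cell, 1 mesothelial and 2 fat markers. The part of these shifts in the matrix changes was not tested.

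**Figure D5:**
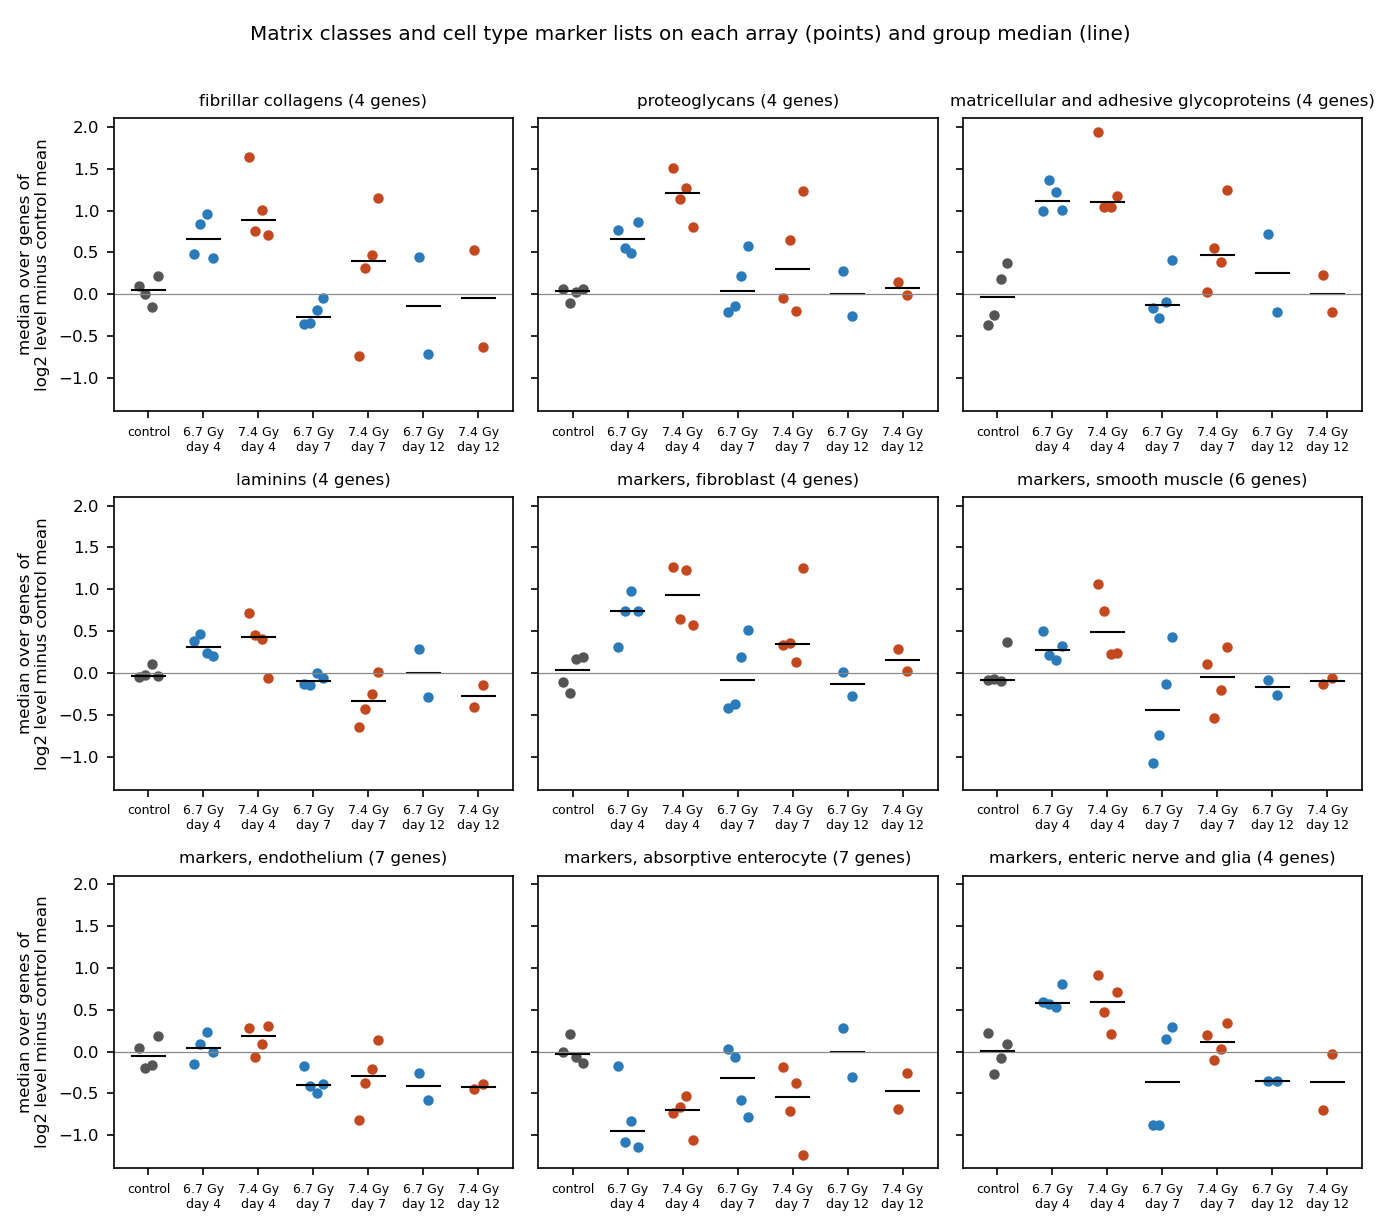
Median over the genes of a list of the log2 level minus the control mean, for each array (points; grey control, blue 6.7 Gy, orange 7.4 Gy) with the median of the group (line), for 4 matrix classes and 5 lists of cell type markers. On day 4 every array lay above all controls for the fibrillar collagens, the proteoglycans, the glycoproteins and the fibroblast markers, and below them for the enterocyte markers, while laminins and endothelial markers overlapped with the controls at 7.4 Gy.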

How the data were processed

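Jejunal RNA of 24 separate animals was measured on 24 one-colour arrays, so the p-values measure the spread between animals. Groups were taken from the dose and day in the labels; where a label protocol names another last day, day 12 of the titles was used. The authors deposited scanner files with the processed signal intensity of each spot, made with Agilent Feature Extraction 11.0.1.1 on a grid of build rheMac2 per the file headers, and a table of log2 values that the authors normalized to the 75th percentile; 99.9% of its row-centred values lay within 0.01 of the values recomputed here from the scanner files. Precision is limited by the number of arrays, and no probe was saturated. No probe sequence was used here. The values of 1 member gene, counted among the members, are not reported here.

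For this report log2 intensity was set relative to each array's 75th percentile, spots of a probe were averaged and control spots left out. A probe entered the test (28171 of 43603 did) where all arrays of 1 or more groups had it well above background, and was fitted with lmFit and eBayes of limma 3.58.1 in R 4.3.3. Comparisons with control used the arrays of those 2 groups; comparisons of days and of doses, and the F test over 7 groups, used 1 model of all 24 arrays. P-values are two-sided and Benjamini-Hochberg adjusted over all tested probes. The fit was tested on simulated data. Every member gene with a called probe against control was named, together with the leading collagens, laminins and single names whatever their values; genes of the other lists were named where called or, on day 4 after 7.4 Gy, among the 2 smallest p in each direction. COL8A1, COL8A2, COL9A1, COL10A1, COL14A1, COL15A1, COL16A1, COL24A1, COL6A2 and LAMB2 are given to complete their classes. Members and lists were chosen with earlier results of these data known. Alternatives were the background correction (normexp with an offset of 50, on the median signal since no mean column was used), the scaling, filters and a floor for dim probes, the methods' t-test, trended and robust variance, the arrays in the fit, slide, position, scan day and replicate number as blocks, leaving out arrays, and the authors' table. Leaving out slide 5, the first scan day alone and the blocks in the model of 24 arrays were added after seeing the data.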

Additional observations from a re-analysis of the deposited data

Results flagged for a closer look

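Over 95 sets of levels of a named gene in a group of 4, 7 had an array that lay far from the other 3; chance gives about 1 in 20. COL1A1 stood high in 7.4 Gy day 4 replicate 1 (0.88) and low in 7.4 Gy day 7 replicate 1 (-0.54), which is an array of slide 5. FN1 stood low in control replicate 1 (2.43) and LAMB3 high in control replicate 3 (2.16). THBS1 stood low in 6.7 Gy day 4 replicate 1 (-3.03), also of slide 5, where the probe was not well above background. It stood high in 7.4 Gy day 4 replicate 1 (-1.09) and in 7.4 Gy day 7 replicate 4 (-1.78).

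The change against control differed between days by the limma test for 11 pairs of gene and day. After 6.7 Gy, day 7 lay below day 4 for COL16A1 (-1.19), FBN1 (-1.05), FN1 (-1.11), THBS1 (-1.25) and VCAN (-1.12) on the log2 scale, and day 12 below day 4 for VCAN (-1.36). After 7.4 Gy, day 12 lay below day 4 for COL12A1 (-1.06), COL16A1 (-1.59), FN1 (-1.37), POSTN (-1.97) and VCAN (-1.39). The mean levels of THBS1 on day 4 and day 7 after 6.7 Gy lay below the common floor of -1.85. The part of slide, scan day and animal in these values was not tested beyond the fits given under the dependence on processing.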

How the results depend on the processing

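Counts of called matrix probes are given in the order day 4 against control after 6.7 and 7.4 Gy (10 and 17 as reported), then day 7 and day 12 against day 4 after 6.7 Gy (7 and 2) and after 7.4 Gy (1 and 9). Testing all probes, dim ones included, gave 1, 0, 2, 0, 0 and 1, and with a common floor 2, 9, 4, 1, 0 and 6. The methods' t-test gave 1, 8, 0, 0, 0 and 0. On day 4, after 6.7 and 7.4 Gy, 0.232% and 0.222% of all probes were called with dim probes included. The shares were 0.568% and 1.06% with the floor and 0.55% and 1.07% with the t-test. Slide as a fixed block gave 0, 0, 15, 5, 0 and 0, scan day 2, 3, 11, 3, 1 and 1, and slide as a random block 11, 21, 12, 6, 1 and 9. Slide position as a block gave 1 after 6.7 Gy, and in a model of all 24 arrays 1 and 0. The replicate block gave 1, 1, 6, 0, 0 and 0. Each of the 24 arrays was a separate animal, so a shared number does not mark the same animal. Deviations of same-numbered arrays had a median correlation of 0.017, beside -0.018 for arrays with different numbers. Arrays of the first scan day alone gave 2, 2, 2, 1 and 0, with no value for day 12 after 7.4 Gy, and without slide 5 the counts were 7, 12, 5, 2, 0 and 0. The arrays of the 2 groups alone gave 1, 0, 0 and 0 between days. For the comparisons between days, and for fits that left out 1 array, the share of all probes called is not given here. Those counts cannot be read against all probes. Normexp gave 8, 15, 5, 1, 0 and 9, scaling on detected probes 11, 19, 9, 5, 1 and 13, probes well above background on all arrays 7, 16, 6, 4, 0 and 9, and trended robust variance 9, 19, 7, 4, 1 and 12.

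Against control on day 7 after 7.4 Gy the count rose from 0 to 1 over probes well above background on all arrays, to 2 in 1 model of 24 arrays and to 3 with slide in that model; the other comparisons with control on day 7 and day 12 and all dose comparisons stayed at 0 in every alternative that kept all arrays. The F test called 11 with no filter and 12 with the floor, against 19. The authors' table gave the reported counts throughout. Leaving out 1 array at a time gave 1 to 8, 4 to 17, 1 to 11, 0 to 4, 0 to 5 and 0 to 11 in the order above; the lowest of these was reached without 6.7 Gy day 4 replicate 2, then control replicate 2, then 6.7 Gy day 4 replicate 3 or 6.7 Gy day 7 replicate 2, then any of 3 arrays, then any of 6 arrays, and then 7.4 Gy day 12 replicate 1. It gave 0 to 1 for day 7 and day 12 after 7.4 Gy against control and for the doses on day 12, and 13 to 22 for the F test. Position could not be fitted for most pairs of groups, nor slide or scan day for some comparisons of day 7 and day 12 with control. Of 2759 values of single genes 2502 kept their side of the threshold. They include 109 uncalled values that changed sign by less than 1 SD of the controls. A call was lost by 190 and gained by 25, 42 moved by more than the replicate spread and 0 called values reversed. Sign changes beyond 1 SD of the controls were seen in 36 uncalled values. Groups held 4 animals, or 2 on day 12, and 16 of the 49 tested probes were not well above background on every array.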
